A study of Mus musculus with 4 samples.

Results

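The genes described here are 9 that are known from endothelium, *Cldn5*, *Ocln*, *Tjp1*, *Plvap*, *Mfsd2a*, *Abcb1a*, *Abcg2*, *Slco1c1* and *Slc7a5*, out of 33456 genes listed for single cell RNA-seq of mouse dorsal root ganglia (DRG). *Plvap* is known from vessels open to the blood and the others from barrier vessels. For short, all 9 are called barrier genes below. Their rows were taken from the matrices by gene symbol. The ganglia came from female C57BL/6 mice of 8 to 12 weeks, and each library pooled cells of several animals. There were 2 libraries from uninjured mice (control) and 2 from mice taken 3 days after a crush of the sciatic nerve (injury). The animals of all 4 libraries were of this 1 strain, with no other allele or agent in the labels. Cells were dissociated with enzymes and sorted as live cells before droplet capture, so the cells counted are those that survived both steps.

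Blood vessels inside a nerve restrict what passes from blood to tissue. Tight junctions made of claudins and occludin seal the gaps between neighbouring endothelial cells, a low rate of vesicle traffic limits passage through the cells, and carriers and efflux pumps decide which small molecules cross. Endothelium that is open to the blood has fenestrae and vesicles spanned by diaphragms of the PLVAP protein, and the vessels of sensory ganglia are known as leakier than those of the nerve trunk. PLVAP and a tight junction seal are therefore known from opposite properties. Some of the other genes, such as *Abcg2*, are also known from cells outside vessels. The questions here were which cells of the ganglion hold each transcript and whether *Plvap* and *Cldn5* occur in the same cell. A further question was whether any of these genes moved with injury.

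On the mouse GRCm38 genome, which the deposited matrices use, *Cldn5* lies on chr16:18776847-18778262 (plus strand), *Plvap* on chr8:71497765-71511752 (minus), *Mfsd2a* on chr4:122946850-122961188 (minus), *Abcb1a* on chr5:8660077-8748575 (plus) and *Abcg2* on chr6:58584523-58695676 (plus). *Ocln* lies on chr13:100496507-100552718 (minus), *Tjp1* on chr7:65296165-65527781 (minus), *Slco1c1* on chr6:141524368-141570177 (plus) and *Slc7a5* on chr8:121881150-121907694 (minus), all as whole genes of GENCODE release M21. Annotated genes on the same strand overlap *Abcb1a* (*Gm42684*) and *Tjp1* (*Gm44794* and *Gm44792*), and their reads could be assigned to either gene. *Abcb1a* also has a close copy, *Abcb1b*, so its counts are uncertain to the extent that reads were shared between the copies.

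The start-site sequences of *Cldn5* and *Mfsd2a* are shown because these genes form the junction seal and the lipid carrier whose levels are compared most often below. Each line holds the 250 bases before the start site, 5′ to 3′ on the strand of the gene, from RefSeq on GRCm38.p6, chr16:18776597-18776846 and chr4:122961189-122961438, with matches to the searched motifs in capitals.
Cldn5: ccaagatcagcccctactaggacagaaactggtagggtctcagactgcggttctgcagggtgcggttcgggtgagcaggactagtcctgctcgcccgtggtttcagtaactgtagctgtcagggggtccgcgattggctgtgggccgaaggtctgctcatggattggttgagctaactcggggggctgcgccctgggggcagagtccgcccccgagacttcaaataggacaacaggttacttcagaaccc
Mfsd2a: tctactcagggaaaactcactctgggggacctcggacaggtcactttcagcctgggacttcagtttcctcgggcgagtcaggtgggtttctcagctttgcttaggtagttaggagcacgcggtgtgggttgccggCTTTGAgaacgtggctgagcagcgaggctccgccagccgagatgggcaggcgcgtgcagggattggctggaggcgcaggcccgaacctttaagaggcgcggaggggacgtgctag

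Motifs of 3 factor families known from endothelium were searched on both strands, AGGAAG for ETS factors, ACAATG for SOX factors and CTTTGA for TCF/LEF factors of Wnt signalling. RefSeq entries were matched for 7 of the 9 genes, with 10 start sites among them, and *Plvap* and *Slc7a5* had none. The TCF/LEF letters occurred once before *Mfsd2a* and at 2 places before *Abcb1a*, whose RefSeq start site lies outside the GENCODE gene. The ETS letters occurred before 5 of the 10 start sites, those of *Abcb1a*, *Slco1c1* and all 3 of *Abcg2*, and the SOX letters before 1, of *Abcg2*. None of the 3 motifs was found before *Cldn5*, *Ocln* or *Tjp1*. Among all 32851 start sites in the same table, 29.5% held the ETS letters, 10.7% the SOX letters and 13.8% the TCF/LEF letters, so these matches describe the sequences and nothing more.

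Where 4 values follow each other, they stand in library order, that is control 1, control 2, injury 1 and injury 2. The 4 matrices held 6975 barcodes, and 6095 passed the cell limits of the methods, 1076 to 2377 per library. A cell was assigned to a type when at least 3 of that type's 8 markers had a unique molecular identifier (UMI, a tag that marks 1 captured RNA molecule) and every other type showed at most 1 marker for each 2 of its own. None of the 9 genes was a marker. This gate gave 420 endothelial-gated cells, 54, 159, 114 and 93 in library order, with 2003594 UMIs in all and medians of 3133 to 5353 UMIs per cell. Their 8 endothelial markers, *Pecam1* and *Cdh5* among them, summed to 4177 to 4752 CPM (the UMIs of a gene per 1e+06 UMIs of all genes in the same cells), and all 8 were detected. The markers of the other 12 types summed to at most 203 CPM in the same cells, the highest being the neutrophil list at 34.5 to 203 CPM and the satellite glia list at 9.10 to 167 CPM. The endothelial share of cells was 4.15% and 11.9% in the control libraries and 4.796% and 8.64% after injury. The libraries shared 20 barcodes, none of them endothelial-gated in both. No doublet caller was run, and the gate left out 50 cells that held at least 3 endothelial markers together with markers of another type.

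Cells of the endothelial gate were the main source of most of the barrier transcripts. Of the UMIs in filtered cells they held 91.4% for *Cldn5*, 89.1% for *Plvap*, 82.0% for *Slc7a5*, 80.3% for *Abcg2*, 76.8% for *Abcb1a* and 68.9% for *Mfsd2a*. The share was lower for *Tjp1* (48.7%), *Slco1c1* (42.1%) and *Ocln* (31.0%). Since endothelial-gated cells were 6.89% of the filtered cells, every gene was held by them at more than their share of cells.

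In the comparison of endothelial sums with the mean of 9 other gated types, 7 of the 9 genes were tested and all 7 passed (edgeR, quasi-likelihood fit blocked by library, more than 4-fold higher at an adjusted p under 0.05). Over all genes 842 of 6656 passed, 12.7%, and 30.2% when no fold was asked for. The 9 genes were chosen as known from endothelium, so their count of 7 describes them and is no test of the set. *Ocln* and *Slco1c1* did not pass the filter on low counts and were not tested. A gene low in the other types can pass that filter through the endothelial sums alone. This limits the direction of its call, here and against each type singly. *Cldn5* and *Plvap*, very low elsewhere, are open to it, and so is *Abcb1a*, whose next type, fibroblasts, had a mean of 27.3 CPM. Each of the 7 genes was also higher in endothelial-gated cells than in each of the 9 other types taken singly, with adjusted p of 0.000588 or less. The share of all genes higher in endothelium was 13% against pericytes, 17.5% against smooth muscle, 22.7% against fibroblasts, 23.5% against myelinating Schwann cells, 24.5% against macrophages, 25% against erythroid cells, 27.1% against neurons, 27.4% against satellite glia and 27.6% against neutrophils. The fitted fold depends on how types at 0 are handled, so the measured levels are given for each gene. UMIs from the 3′ end are not scaled by transcript length, and the levels of different genes are not compared.

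Among the tight junction genes, *Cldn5*, the claudin that forms the strands of barrier endothelium, stood at 3742, 3066, 3861 and 2469 CPM in library order. Its mean of 3284 ± 647 CPM (SD, n = 4 libraries) was 876-fold above that of macrophages, the next highest type at 3.75 ± 2.95 CPM, and the 4 types with no *Cldn5* UMI were at least 256-fold lower when 3 UMIs over the type were taken as the floor. *Cldn5* was detected in 91.7% of endothelial-gated cells (exact 95% binomial interval 88.6 to 94.1, counting error only). In satellite glia 1.70% of cells had a UMI, and in fibroblasts 0.587%. The part of free RNA in these shares was not tested. The 24 satellite glia UMIs passed a test against the mean of the other non-endothelial types (log2 fold 3.07, SE 1.10, adjusted p = 0.0241 by edgeR), at 0 to 6.94 CPM.

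*Tjp1*, the scaffold that anchors junction strands to the cytoskeleton, had the lowest endothelial share of UMIs among the 7 tested genes. Its endothelial level was 218 and 268 CPM in the control libraries and 182 and 226 CPM after injury, 223 ± 35.2 CPM (SD, n = 4), and pericytes followed at 47.7 ± 8.89 CPM (SD, n = 2), a 4.68-fold difference. Fibroblasts held 20.9 to 48.0 CPM and satellite glia 5.51 to 28.3 CPM. Pericytes, fibroblasts, myelinating Schwann cells and satellite glia each stood above the mean of the other non-endothelial types (edgeR log2 folds of 3.05, 2.42, 2.06 and 1.76, adjusted p of 0.00414, 5.86e-06, 0.0295 and 0.00348).

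*Ocln*, the other strand protein, was near the limit of detection. It had 13 UMIs in endothelial-gated cells, 4 and 3 in the control libraries and 3 and 3 after injury, where 3 UMIs is the floor taken for a library. Pericytes held 3 UMIs in control replicate 1 and 1 in injury replicate 1, fibroblasts 6 in all, and 19 UMIs fell in cells without a type. At this depth no difference between types could be shown for *Ocln*.

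*Plvap*, which forms the diaphragms of fenestrae and of endothelial vesicles, was at 1179, 674, 1144 and 837 CPM in library order. The mean of 958 ± 244 CPM (SD, n = 4) was 136-fold above neurons, the next type at 7.04 ± 1.49 CPM (SD, n = 2). Those neurons had 4 *Plvap* UMIs in 67 cells, at a median of 9395 UMIs per cell against 4299 in endothelial-gated cells, and their *Plvap* passed the test against the mean of the other non-endothelial types only narrowly (adjusted p = 0.0494 by edgeR). *Plvap* was detected in 72.1% of endothelial-gated cells (interval 67.6 to 76.4), against 0.808% of satellite glia and 0.419% of fibroblasts.

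*Mfsd2a*, the carrier of lysophospholipids that restrains vesicle traffic in barrier endothelium, had a second source in glia. Endothelial-gated cells held 560 and 656 CPM in the control libraries and 645 and 487 CPM after injury. Myelinating Schwann cells followed at 62.4 ± 4.28 CPM (SD, n = 4), a 9.41-fold difference, and satellite glia at 52.4 CPM. In satellite glia the level was 22.0, 71.0, 49.4 and 67.0 CPM in library order, and a UMI was found in 21.3% of cells, whereas fibroblasts had one in 0.503% and macrophages in 0.390%. Myelinating Schwann cells lay within 58.0 to 68.0 CPM in the 4 libraries. Each of these glial types was higher than the mean of the other non-endothelial types (edgeR log2 fold 4.77, SE 0.57, adjusted p = 6.6e-09 in myelinating Schwann cells, and log2 fold 4.68, SE 0.38, adjusted p = 1.49e-13 in satellite glia).

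Of the efflux pumps, *Abcb1a*, the endothelial P-glycoprotein, was at 387, 423, 536 and 357 CPM in library order. Its second source was the fibroblast gate, at 12.3 and 46.8 CPM in control and 16.7 and 33.4 CPM after injury, where 9.65% of cells had a UMI against 0.162% of satellite glia. The mean difference between endothelium and fibroblasts was 15.6-fold, and fibroblasts were higher than the mean of the other non-endothelial types (edgeR log2 fold 6.05, SE 0.64, adjusted p = 1.32e-09). In both conditions replicate 2 had the higher fibroblast value.

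*Abcg2*, a pump with a wide range of substrates that is also known from red cell precursors and stem cells, was detected in nearly every endothelial-gated cell. It stood at 1784 and 1938 CPM in the control libraries and at 1701 and 1739 CPM after injury, 1790 ± 104 CPM (SD, n = 4), and 98.6% of endothelial-gated cells had a UMI. Erythroid cells, 45 in all, held 368 ± 39.9 CPM (SD, n = 2 libraries with at least 10 cells), 4.87-fold less, and 82.2% of them had a UMI. Fibroblasts had 25.6 to 51.1 CPM and macrophages 9.73 to 23.6 CPM. Erythroid cells (edgeR log2 fold 5.02, adjusted p = 2.36e-15) and fibroblasts (log2 fold 1.30, adjusted p = 4.21e-05) were each above the mean of the other non-endothelial types.

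*Slc7a5*, the light chain of a carrier of large neutral amino acids, was at 492 and 550 CPM in the control libraries and at 520 and 480 CPM after injury. Erythroid cells followed at 104 ± 45.5 CPM (SD, n = 2), 4.93-fold lower, and myelinating Schwann cells held 17.2 to 65.2 CPM. Both lay above the mean of the other non-endothelial types (edgeR log2 fold 5.26, adjusted p = 2.85e-07, and log2 fold 3.38, adjusted p = 3.57e-05). *Slco1c1*, a carrier of thyroid hormone and organic anions, was low everywhere, with 13, 17, 14 and 7 UMIs in endothelial-gated cells in library order, or 59.2, 20.8, 32.2 and 13.2 CPM. Fibroblasts held 31 *Slco1c1* UMIs (3.43 to 8.51 CPM), satellite glia 26 and pericytes 5. *Slco1c1* was detected in 7.38% of endothelial-gated cells.

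**Figure D1:**
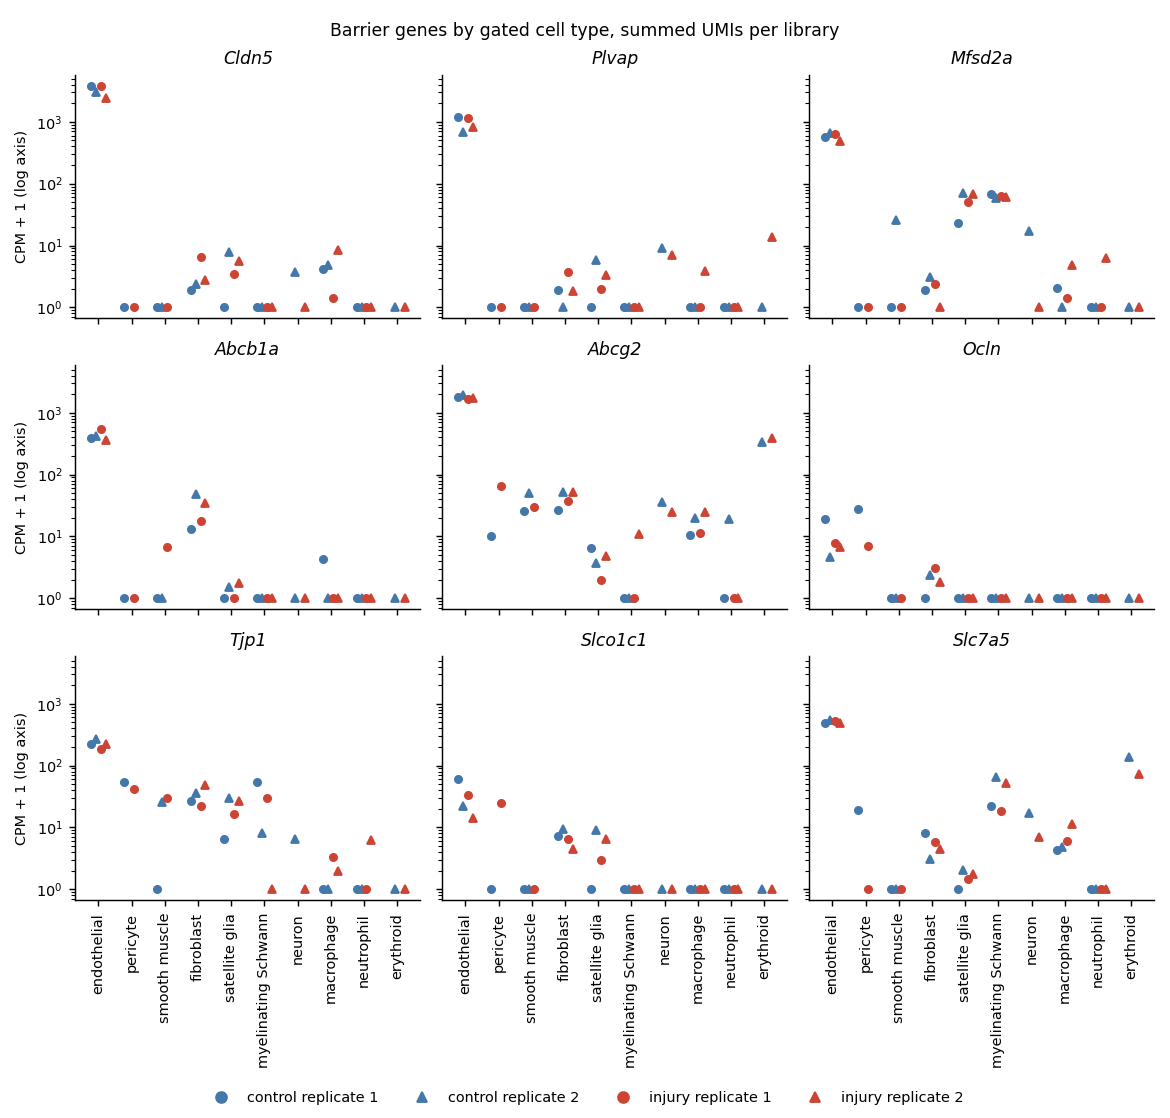
CPM plus 1 (log axis) of each of the 9 genes in endothelial-gated cells and the 9 types compared with them, where each point is the sum over the cells of 1 library with at least 10 cells of the type (blue, control; red, injury; circle, replicate 1; triangle, replicate 2). Outside the endothelial column *Cldn5* reaches at most 7.56 CPM and *Plvap* at most 13.0 CPM, while *Mfsd2a* also shows in satellite glia and myelinating Schwann cells, *Abcb1a* in fibroblasts, and *Abcg2* and *Slc7a5* in erythroid cells.

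Tests of second sources set a type against the unweighted mean of the other non-endothelial types on the log scale. A type that passed can therefore lie below another of them. The tests were made over all genes, and 11.3% of the 6656 genes were higher in erythroid cells than in that mean, 34.9% in fibroblasts, 33.1% in satellite glia, 21.2% in myelinating Schwann cells, 25.6% in neurons and 15.3% in pericytes. In control replicate 2, the 3 pericyte-gated cells held 23 *Cldn5*, 9 *Mfsd2a* and 3 *Abcb1a* UMIs, those of each gene in 1 cell. Type sums of fewer than 10 cells were not used in the tests between types or of injury within a type, so these cells enter none of those. They are part of the sums over all filtered cells. Among the 1416 cells with no type, 62 had a *Cldn5* UMI, and 43 of these held at least 3 endothelial markers beside markers of another type.

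The other genes of the barrier were described from gene lists. These lists hold genes known from endothelium, and a listed gene can pass the low-count filter through the endothelial sums alone. Their counts and medians therefore describe the genes and are no test of the lists. Of 18 further tight junction genes, 8 were tested and 6 were higher in endothelium, among them *Esam*, an adhesion molecule of endothelial junctions (log2 fold 7.72, SE 0.18), *Lsr*, a protein of tricellular junctions (7.14, SE 0.36), and *Jam2* (7.01, SE 0.37). The median log2 fold of the list was 5.38, against 0.12 over all 6656 genes. Of 17 further carriers and receptors, 12 were tested and 8 passed, led by *Slco1a4* (log2 fold 9.61, SE 0.23), *Slco2b1* (5.61, SE 0.47) and *Slc2a1*, the glucose carrier (5.58, SE 0.23), with a list median of 3.14. Of 12 caveolar and adhesion genes 8 of 10 tested passed, with *Gpihbp1* (log2 fold 10.49, SE 0.28), which holds lipoprotein lipase on capillaries, in front. Of 17 Wnt and Sox regulators of the barrier 8 of 9 tested passed, *Sox17* (log2 fold 10.50, SE 0.25) and *Lef1* (8.44, SE 0.32) among them. The VEGF and angiopoietin, arterial, capillary and venous lists had 6 of 9, 4 of 5, 4 of 6 and 4 of 5 tested genes called.

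The patterns most like each gene were sought over 35 library and type sums of 12 types, by Pearson's correlation of log2(CPM + 1) across the tested genes. The sums share libraries and depth, so these values describe likeness alone. *Cldn5* was closest to *Eps8l2* (r = 0.972), *Gpihbp1* (0.970) and *AU021092* (0.970). *Plvap* was closest to *AU021092* (0.941), *Gpihbp1* (0.941) and *Degs2* (0.938), and *Abcb1a* to *Fmo2* (0.950), the gate marker *Cdh5* (0.937) and *Paqr5* (0.925). *Mfsd2a* had 1 close partner, *Lrrn3* (0.900), followed by *Aif1l* (0.804) and *Fam107a* (0.802). The leading partners of the others were *Slc39a8* for *Abcg2* (0.849), *Emcn* for *Ocln* (0.889), *Mpzl1* for *Tjp1* (0.861), *Thsd1* for *Slco1c1* (0.873) and *Kdr* for *Slc7a5* (0.833). None of the 9 genes was among the 3 closest partners of another.

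*Plvap* and *Cldn5* were found together in most endothelial-gated cells. Both had a UMI in 270 of 420 cells (64.3%, exact 95% binomial interval 59.5 to 68.9), *Cldn5* alone in 115 (27.4%, 23.2 to 31.9), *Plvap* alone in 33 (7.86%, 5.47 to 10.9) and neither in 2. Both were found in 51.9%, 62.9%, 69.3% and 67.7% of cells in library order. There were 101 cells with at least 10 *Cldn5* UMIs and no *Plvap* UMI, and 7 cells with at least 10 *Plvap* UMIs and no *Cldn5* UMI.

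Detection of *Plvap* was lower where *Cldn5* was detected. Of cells with a *Cldn5* UMI 70.1% also had a *Plvap* UMI, compared with 33 of 35 cells (94.3%) without a *Cldn5* UMI. In each library the share with both was below the product of the 2 separate shares, which was 54.9%, 64.7%, 71.1% and 69.0% in library order. As detection rises with depth (medians of 4511.5, 3979 and 3394 UMIs per cell in cells with both, *Cldn5* alone and *Plvap* alone), every cell was also thinned to 1000 UMIs, which all 420 cells reached. Then 31.7% of cells had both, 47.4% *Cldn5* alone, 13.3% *Plvap* alone and 7.62% neither, and *Plvap* was detected in 40.1% of cells with a *Cldn5* UMI and in 63.6% of those without. These shares describe the cells and were not tested.

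**Figure D2:**
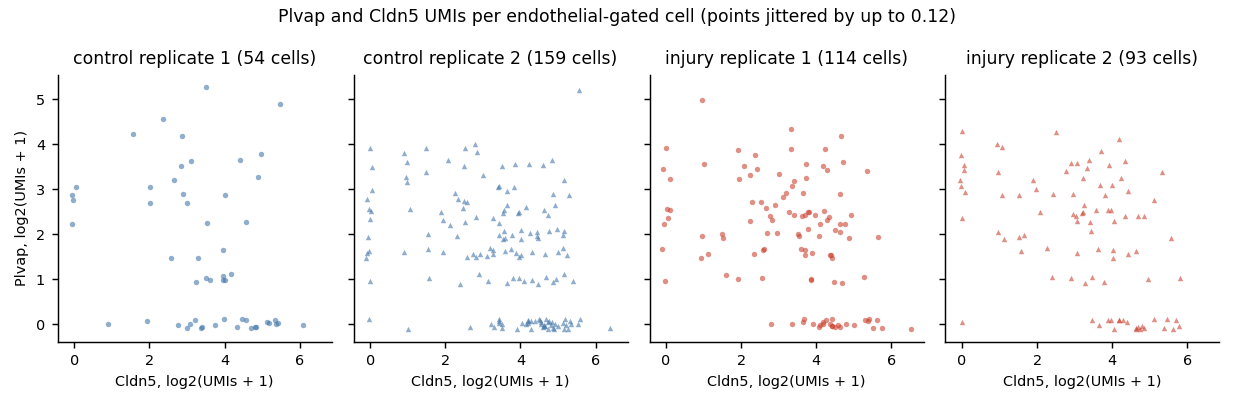
UMIs of *Plvap* (vertical) against *Cldn5* (horizontal), each as log2(UMIs + 1), where each point is 1 endothelial-gated cell, shifted at random by up to 0.12 so that cells do not hide each other, and each panel is 1 library (blue, control; red, injury). Cells without *Plvap* lie mostly at high *Cldn5* along the lower edge, and a small column of cells with *Plvap* and without *Cldn5* stands at the left edge of each panel.

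The 33 cells with *Plvap* alone (4, 12, 9 and 8 by library) were compared with the 115 cells with *Cldn5* alone (22, 46, 26 and 21), summed per library. These classes are set by 2 of the 9 genes, which were therefore left out of the test, and a cell that holds few copies of a gene can fall in a class by sampling. Of the 5 remaining genes that passed the filter on low counts, 4 were lower in cells with *Plvap* alone, *Mfsd2a*, *Abcb1a*, *Slc7a5* and *Tjp1* (edgeR, blocked by library, adjusted p under 0.05). Over all genes 108 of 1380 were lower, 7.83%, and 92 were higher, 6.67%. A gene low in 1 class can pass the low-count filter through the other class alone, which limits the direction of its call. *Mfsd2a* and *Tjp1* held 23 and 13 UMIs in cells with *Plvap* alone and are open to this limit. The endothelial markers of the gate summed to 4675 CPM in cells with *Plvap* alone and 4279 CPM in cells with *Cldn5* alone, with all 8 detected in both. The fibroblast list stood at 79.5 and 72.1 CPM, the neutrophil list at 111 and 86.5 CPM and the pericyte list at 31.8 and 70.0 CPM. The neuron list was at 87.5 and 124 CPM, the satellite glia list at 71.6 and 55.6 CPM and the myelinating Schwann list at 103 and 8.24 CPM. Of the 13 myelinating Schwann UMIs in cells with *Plvap* alone, 12 came from control replicate 2. The part of these other markers in the result was not tested.

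*Mfsd2a* had the largest fitted difference of the 5 genes tested. It was at 0, 164, 386 and 157 CPM in cells with *Plvap* alone, and at 965, 881, 865 and 823 CPM in cells with *Cldn5* alone (log2 fold change -2.27, SE 0.35, adjusted p = 0.000794 by edgeR). Cells with both lay between them, at 406, 616, 604 and 430 CPM. The share of cells with an *Mfsd2a* UMI was 30.3%, 72.2% and 76.5% in cells with *Plvap* alone, with both and with *Cldn5* alone.

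*Abcb1a* was at 196, 123, 343 and 183 CPM in cells with *Plvap* alone and at 489, 576, 715 and 570 CPM in cells with *Cldn5* alone (log2 fold change -1.62, SE 0.29, adjusted p = 0.00177 by edgeR). *Slc7a5* was at 131, 225, 386 and 183 CPM against 643, 627, 681 and 615 CPM (log2 fold change -1.48, SE 0.28, adjusted p = 0.00269 by edgeR). For both genes the cells with both transcripts lay between the classes in every library. When cells were thinned to 1000 UMIs before the classes were set, the calls of *Abcb1a* (adjusted p = 0.0554) and *Slc7a5* (adjusted p = 0.0964) were lost, and that of *Mfsd2a* held (log2 fold change -2.12, SE 0.36). *Tjp1* was at 0, 184, 85.7 and 52.4 CPM against 308, 332, 265 and 244 CPM (log2 fold change -1.55, SE 0.44, adjusted p = 0.028 by edgeR), on 13 UMIs in cells with *Plvap* alone. Its call was lost without injury replicate 1 (adjusted p = 0.0821) and without injury replicate 2 (adjusted p = 0.127).

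*Abcg2* did not pass the test. It was at 848, 961, 2057 and 1597 CPM in cells with *Plvap* alone and at 2027, 1932, 1569 and 1918 CPM in cells with *Cldn5* alone, and in injury replicate 1 the order was the other way round (log2 fold change -0.50, SE 0.23, adjusted p = 0.192 by edgeR). *Slco1c1* and *Ocln* fell below the filter. Of the 51 endothelial *Slco1c1* UMIs, 45 were in cells with *Cldn5* alone (13, 15, 11 and 6 by library), 6 in cells with both and none in cells with *Plvap* alone, which puts the level in cells with *Cldn5* alone at least 3.89-fold higher when 3 UMIs over the 33 cells are taken as the floor. By cell, 26 of 115 cells with *Cldn5* alone and 5 of 270 with both had an *Slco1c1* UMI. In injury replicate 1, 8 of the 11 UMIs in cells with *Cldn5* alone came from 1 cell. *Ocln* had 12 of its 13 endothelial UMIs in cells with *Cldn5* alone, 1 in a cell with *Plvap* alone and none in cells with both.

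**Figure D3:**
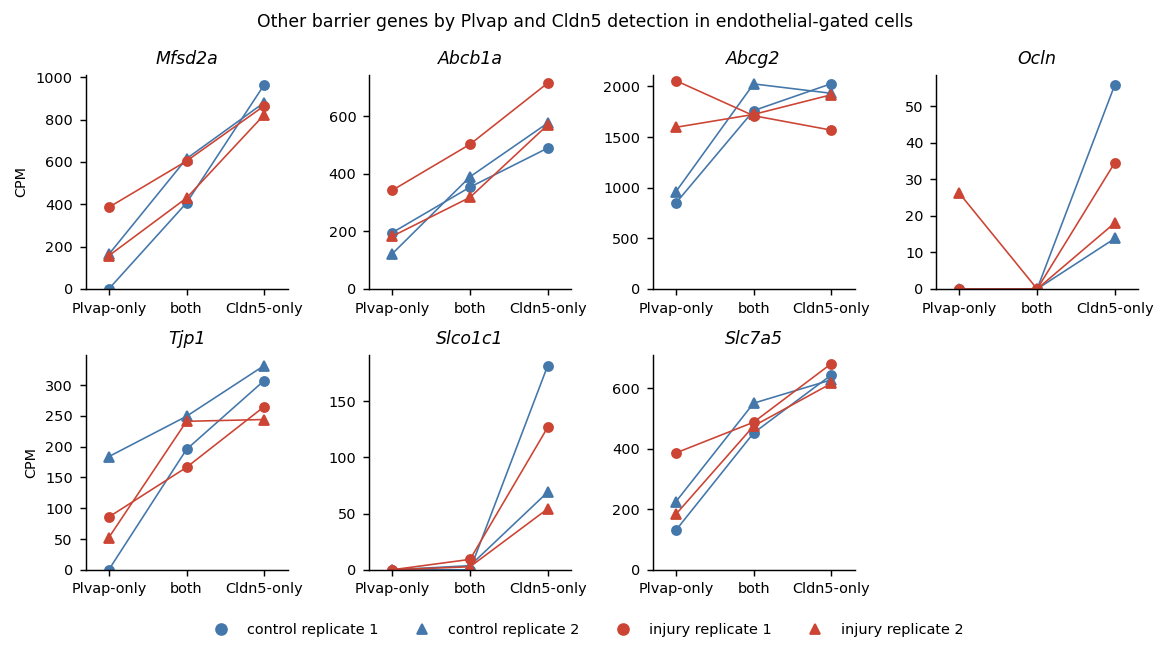
CPM of the 7 barrier genes that did not set the classes, in endothelial-gated cells with *Plvap* alone, with both and with *Cldn5* alone, where each line joins the 3 classes of 1 library (blue, control; red, injury; circle, replicate 1; triangle, replicate 2). *Mfsd2a*, *Abcb1a*, *Slc7a5* and *Tjp1* are lowest in cells with *Plvap* alone in all 4 libraries, *Slco1c1* lies almost wholly in cells with *Cldn5* alone, and *Abcg2* shows no common direction.

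Of the 17 genes of the carrier list 6 were tested, and 5 were lower in cells with *Plvap* alone, with a list median of -1.53 on the log2 scale against -0.01 over all 1380 genes. *Slc2a1*, the glucose carrier, had 0, 2, 0 and 0 UMIs in cells with *Plvap* alone and 90, 166, 145 and 91 UMIs in cells with *Cldn5* alone, or 15.9 and 1013 CPM over all cells, a ratio of 63.7 (exact 95% interval 17.5 to 528, counting error only). Its adjusted p was 5.54e-06 by edgeR, and it passed the low-count filter through cells with *Cldn5* alone, which limits the direction of its call. Cells with both held 244 CPM. *Slco1a4* (log2 fold change -1.41, SE 0.29) and *Slc6a6*, the taurine carrier (-1.42, SE 0.30), were lower in 4 of 4 libraries.

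Of 5 tested regulators of the barrier in the Wnt and Sox list, 3 were lower, *Sox17* (log2 fold change -1.75, SE 0.29, adjusted p = 0.00133 by edgeR), *S1pr1* (-1.61, SE 0.36) and *Lef1*, a nuclear effector of Wnt signals (-1.58, SE 0.44), with a list median of -1.58. The tight junction list was split, with *Lsr* lower (-1.70, SE 0.45), *Jam3* higher (2.08, SE 0.45) and *Esam*, *F11r* and *Jam2* not passing among 5 tested. Of 8 tested caveolar and adhesion genes 2 were higher, *Vcam1*, an adhesion molecule for leukocytes (2.62, SE 0.62), and *Gpihbp1* (2.20, SE 0.43). Both were higher in 3 of 4 libraries.

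Of genes of vessel segments, only 2 of 9 arterial genes passed the filter on low counts. A gene this low in cells with *Plvap* alone passes the filter through its level in the other class, so the direction of its call is no result about the list. Both were lower in cells with *Plvap* alone, where *Hey1* and *Gja4* each had 1 UMI, against 90 and 91 UMIs in cells with *Cldn5* alone, ratios of 23.3 (4.08 to 931) and 23.6 (4.13 to 941) and adjusted p of 0.00217 and 0.00218 by edgeR. Of the untested arterial genes, chosen here after their values were seen, *Efnb2* was detected in 15.2% of cells with *Plvap* alone and 17.4% of cells with *Cldn5* alone, *Dll4* in 18.2% and 23.5%, and *Bmx* in 6.06% and 40%. Of 7 venous genes 4 were tested, and all 4 were higher, *Lrg1* (log2 fold change 3.32, SE 0.56), *Nr2f2*, a regulator of venous identity (3.21, SE 0.74), *Vcam1* and *Vwf* (1.90, SE 0.44), with a list median of 2.91. Over all genes 6.67% were higher. *Nr2f2*, *Vcam1*, *Lrg1* and *Vwf* were detected in 6.09%, 10.4%, 14.8% and 20.9% of cells with *Cldn5* alone. A gene low in that class passes the filter through the other, so the direction of these calls is no result about the list either. Of 5 tested capillary genes, 2 were higher, *Aplnr* (3.78, SE 0.55) and *Gpihbp1*, and *Car4*, *Kdr* and *Rgcc* did not pass. *Aplnr* was also the 1 gene called of 5 tested in the VEGF and angiopoietin list.

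**Figure D4:**
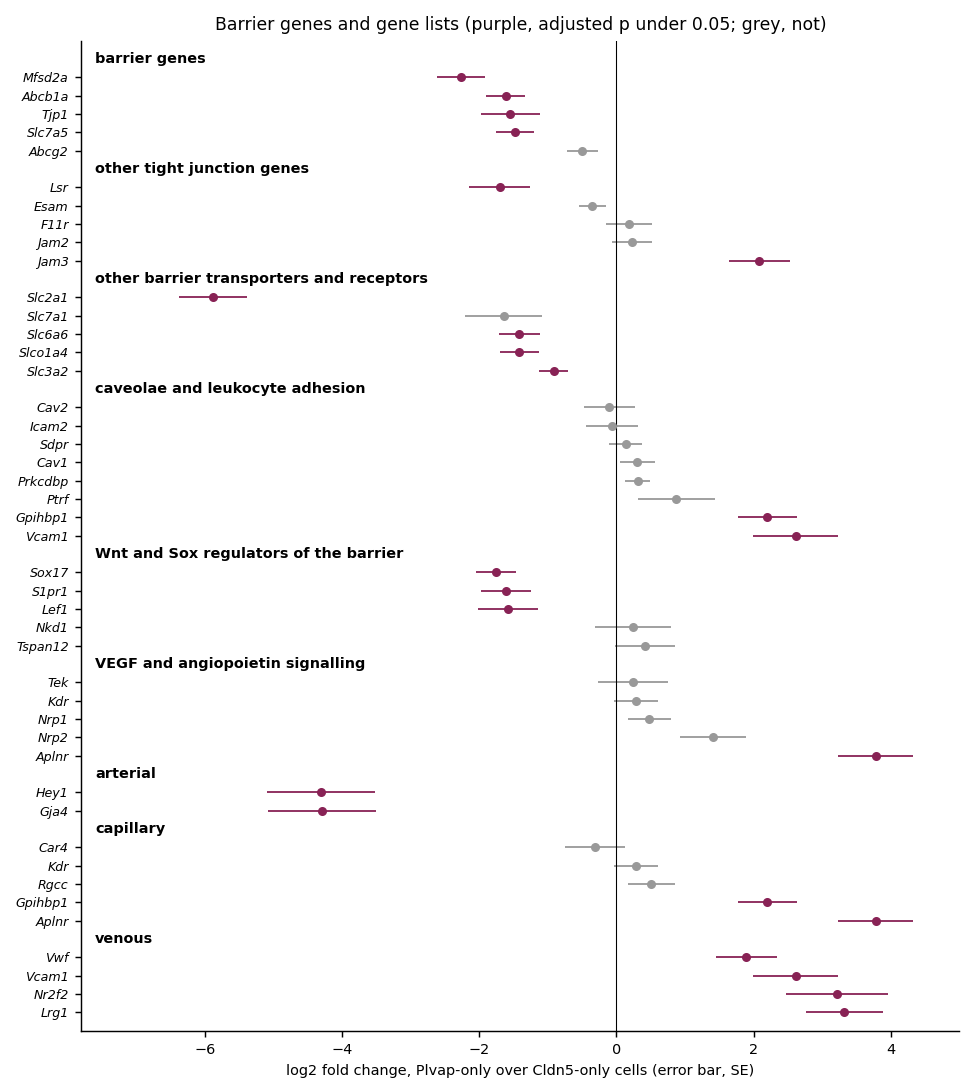
Log2 fold change of cells with *Plvap* alone over cells with *Cldn5* alone, with its SE, for the tested barrier genes and tested genes of 8 lists (purple, adjusted p under 0.05; grey, not). The 5 carriers shown and both tested arterial genes lie left of 0 and the 4 tested venous genes right of it, while *Nkd1* and *Tspan12* of the Wnt and Sox list lie right of 0 in grey.

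The genes with the largest differences over the whole test were of several kinds. They were picked by the size of their change. Such genes can pass the low-count filter through the class where they are high, which limits the direction of their calls. In cells with *Cldn5* alone, *Plat*, which encodes tissue plasminogen activator, had 151 UMIs, *Paqr5* 110, *Degs2* 103 and *Nebl* 78, and none had a UMI in cells with *Plvap* alone, so they were at least 13.0-fold, 9.497-fold, 8.89-fold and 6.73-fold higher (floor of 3 UMIs over the class). *Eps8l2*, *Frmd4b* and *Arhgap10* had ratios of 14.4 (3.89 to 120), 8.46 (2.81 to 41.7) and 8.46 (2.81 to 41.7). In the other direction, *Aebp1* and *Fabp4*, a fatty acid binding protein, had 32 and 23 UMIs in cells with *Plvap* alone and none in cells with *Cldn5* alone, at least 41.2-fold and 29.6-fold higher. *Nupr1* had a ratio of 57.9 (8.91 to 2438), against 1 UMI. *Aqp1*, a water channel, had 99 UMIs in the 33 cells with *Plvap* alone and 7 in the 115 cells with *Cldn5* alone (log2 fold change 5.63, SE 0.46), and was detected in 69.7% and 5.22% of them. *Bgn* (log2 fold change 4.998, SE 0.53), *H2-Aa* (3.61, SE 0.72), *Slco2a1*, a prostaglandin carrier (3.52, SE 0.62), and *Ptgs1* (3.52, SE 0.70) were also higher, each in 4 of 4 libraries.

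Classes at full depth also differ in depth, and a comparison with more cells was added after the data were seen. Every cell was thinned to 1000 UMIs, and among cells with a *Cldn5* UMI those with and without a *Plvap* UMI were compared by library. None of the 5 barrier genes tested passed (edgeR, Benjamini-Hochberg), where 27 of 1008 genes did, 2.68%, 1.19% being higher and 1.49% lower in cells with *Plvap*. *Mfsd2a* had a log2 fold change of -0.55 (SE 0.21, adjusted p = 0.164), *Tjp1* of -0.50 (SE 0.42), *Abcb1a* of -0.18 (SE 0.25), *Slc7a5* of -0.02 (SE 0.22) and *Abcg2* of 0.09 (SE 0.14). *Slc2a1* was lower in cells with *Plvap* (-2.33, SE 0.28, adjusted p = 1.91e-14) and *Aqp1* (2.02, SE 0.46), *Aplnr* (1.87, SE 0.51), *Gpihbp1* (1.55, SE 0.26) and *Lrg1* (0.90, SE 0.26) were higher. The strongest gene of that comparison, *Ccl21a* (-8.77, SE 0.56), is known from lymphatic vessels. The endothelial gate held 5 cells with at least 3 of the lymphatic genes *Prox1*, *Lyve1*, *Mmrn1* and *Ccl21a*, each with both *Plvap* and *Cldn5* at full depth. Without them *Ccl21a* fell below the filter on low counts, *Slc2a1* stayed at -2.35 (SE 0.28) and none of the 5 barrier genes passed.

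No barrier gene was called as changed 3 days after nerve crush in endothelial-gated cells. Of 8 genes tested, 0 passed (edgeR over 2 against 2 libraries, with a change of at least 2 on the log2 scale required beside an adjusted p under 0.05), and over all 5839 genes 0 passed, 0%, with 96 at an unadjusted p under 0.05 and none called by DESeq2. Simulated counts with 200 genes changed 8-fold gave 88.5% of them back at this sample size, with 17 unchanged genes called as well. This recovery belongs to the simulated counts, and in the measured counts the smallest adjusted p over all genes was 0.999 by edgeR. The log2 fold changes were -0.01 (SE 0.33) for *Cldn5*, 0.20 (SE 0.33) for *Plvap*, -0.02 (SE 0.26) for *Mfsd2a*, 0.23 (SE 0.28) for *Abcb1a*, -0.03 (SE 0.25) for *Abcg2*, -0.19 (SE 0.23) for *Tjp1*, -0.47 (SE 0.65) for *Slco1c1* and 0.02 (SE 0.23) for *Slc7a5*, each with an adjusted p of 0.999 by edgeR. A p above the threshold does not show that the levels were equal. In CPM the control and injury ranges overlapped for *Cldn5*, *Plvap*, *Mfsd2a*, *Abcb1a*, *Tjp1*, *Slco1c1* and *Slc7a5*, and for *Abcg2* the control libraries (1784 and 1938 CPM) lay above the injury libraries (1701 and 1739 CPM). By exact permutation of 2 against 2 libraries a complete order has a two-sided p of 0.333. The share of all genes without overlap was not counted, so the order of *Abcg2* is no result. *Ocln* was not tested. In the 8 gene lists, 0 genes were called in either direction, and their median log2 fold changes lay between -0.19 and 0.16, with -0.0048 over all genes.

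**Figure D5:**
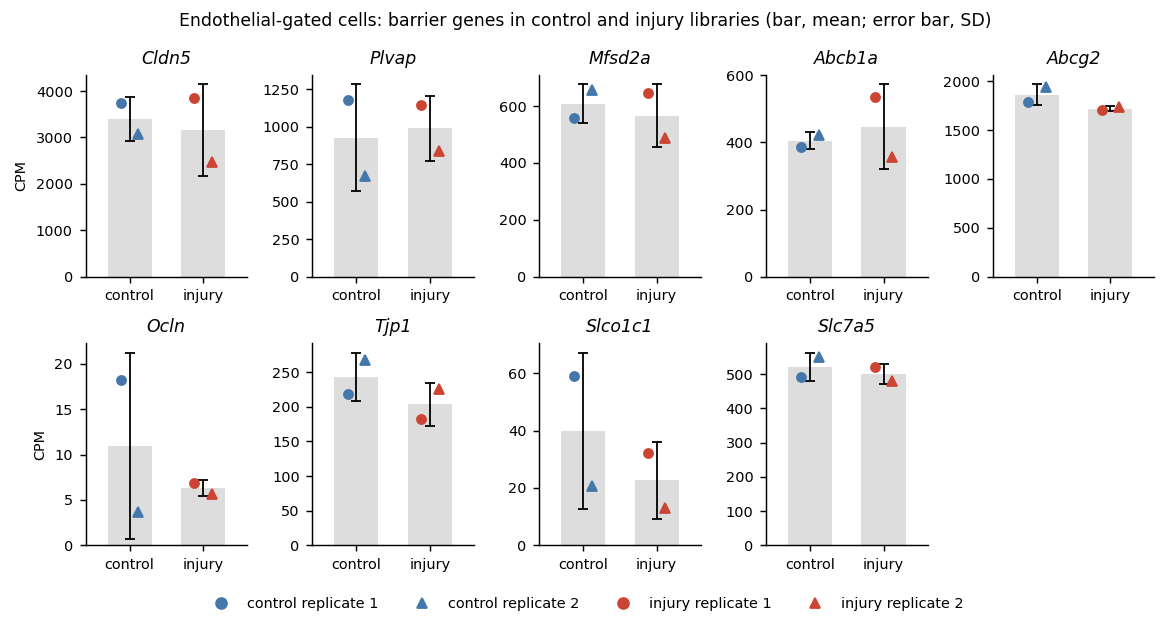
CPM of the 9 genes in endothelial-gated cells of the control and injury libraries (bar, mean; error bar, SD of 2 libraries; circle, replicate 1; triangle, replicate 2). The spread between libraries of 1 condition is as large as the difference between the conditions for most genes, and *Cldn5* ranges from 2469 to 3861 CPM within the injury libraries.

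The share of endothelial-gated cells with both *Plvap* and *Cldn5* was 57.4% ± 7.81 in control and 68.5% ± 1.10 after injury (SD, n = 2 libraries each), 11.1 percentage points higher, and each injury library lay above each control library (two-sided p = 0.333 by exact permutation of the libraries, which is as low as 2 against 2 can go). The share with *Plvap* was 64.8% ± 7.91 in control and 76.8% ± 0.60 after injury (exact permutation p = 0.333), and that with *Cldn5* 92.2% ± 0.54 and 91.2% ± 1.26 (exact permutation p = 0.667). After thinning to 1000 UMIs the difference for cells with both was 3.09 points and the order was lost, with 29.6%, 29.6%, 43.9% and 21.5% in library order (exact permutation p = 1).

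In the other types that hold these genes, injury gave no call either. The low-count filter left 6 pairs of gene and type, and 0 of them passed (edgeR). *Mfsd2a* in satellite glia changed by 0.05 (SE 0.41) on the log2 scale, *Abcb1a*, *Abcg2* and *Tjp1* in fibroblasts by -0.21 (SE 0.59), 0.23 (SE 0.35) and 0.21 (SE 0.40), *Tjp1* in satellite glia by -0.21 (SE 0.50) and *Abcg2* in macrophages by 0.19 (SE 0.59). The backgrounds were 0 of 8712 genes in satellite glia, 3 of 8756 in fibroblasts (0.0343%) and 0 of 7072 in macrophages. At an unadjusted p under 0.05 they were 110, 201 and 579 genes.

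Summed over all filtered cells, 0 of the 9 genes and 0 of 13165 genes passed between conditions, 0%, with 181 at an unadjusted p under 0.05 and 6 called by DESeq2. All 9 log2 fold changes were below 0, from -0.77 (SE 0.41) for *Slco1c1* and -0.42 (SE 0.42) for *Cldn5* to -0.03 (SE 0.31) for *Plvap*. The median over all 13165 genes was -0.02. The share of all genes below 0 was not counted, so this common sign is no result. When 1 library was left out, *Cldn5* ran from -0.86 to 0.24 and *Mfsd2a* from -0.95 to 0.78. Only *Slco1c1* stayed below 0 whichever library was left out. *Cldn5* was at 324 ± 185 CPM in control and 225 ± 38.1 CPM after injury (SD, n = 2). The endothelial share of cells ran from 4.15% to 11.9% between the control libraries alone, and in such sums fewer endothelial cells and less RNA per cell cannot be told apart.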

How the data were processed

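Single cell 3′ RNA-seq was made of dissociated, live-sorted DRG cells of 2 control and 2 injury libraries. The authors deposited raw UMI counts per gene and barcode, made with Cell Ranger on mm10, and used Partek for their cell filters, which had not been applied to these matrices. Here barcodes with 600 to 15000 UMIs, 500 to 4000 genes and under 10% mitochondrial UMIs were kept. The methods of the study give the first limit in reads per cell, and the number of cells kept here is lower than the study's. Kept totals ran from 4293865 to 9139674 UMIs per library. Cells were gated by 8 markers a type, and UMIs were summed per library and type or class (at least 10 cells, except in the comparison of *Plvap* and *Cldn5* classes). The study calls the 2 libraries of a condition biological replicates, each pooled from several mice. In the injury tests p-values measure the spread between libraries of a condition. In the tests between types or classes, which are blocked by library, they measure how the difference within a library varies across libraries.

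Sums were tested with edgeR 4.0.16 in R 4.3.3 (quasi-likelihood, TMM scaling, default filter on low counts, Benjamini-Hochberg adjustment), with DESeq2 1.42.0 as an alternative. The SE beside an edgeR log2 fold change is the absolute log2 fold change divided by the square root of the F statistic. It is approximate and is not the standard error of the fitted coefficient. Shares were compared by exact permutation over libraries with scipy 1.17.1. The script was tested on simulated counts with 200 genes changed 8-fold, of which 86.5% were recovered for endothelium against other types (6656 genes), 88.5% for injury in endothelium (5839 genes), 90% for the classes (1382 genes) and 88.5% for the thinned comparison (1010 genes), with 10, 17, 9 and 3 unchanged genes called. Intervals are exact binomial (95%) and cover counting error only, as do floors of 3 UMIs.

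The genes, gene lists and markers were chosen with earlier results of these data known. Named genes were the 9 barrier genes, up to 4 called genes of each list with the largest change, the 10 genes with the largest change in each direction between the classes, and the 3 genes most like each barrier gene. A few others (*Pecam1*, *Cdh5*, uncalled list members, genes of the thinned comparison) are named beside them, the last after their values were seen. Alternatives covered scaling, filter, tool, gate, thinning, replicate block and leaving out each library. The perineurial gate held 3 cells and was not compared. T cells and B cells reached 10 cells in control replicate 1 alone, so they entered the search for like patterns but no test between types. Results of 2 genes that this rule names are not reported here.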

Additional observations from a re-analysis of the deposited data

How the results depend on the processing

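The count of barrier genes called was kept at 7 for endothelium over other types without each library in turn, and at 0 for injury in endothelium, in other types and in whole libraries. Between cells with *Plvap* alone and *Cldn5* alone, 4 genes were called, 3 to 4 without one library, 3 with DESeq2 and 1 when cells were thinned before the classes were set. In the thinned comparison added after the data were seen, 0 were called, 0 without any one library and 3 when cells were not thinned. The mean share of cells with both *Plvap* and *Cldn5* was 62.9%, 60.8% to 66.6% without one library, 31.1% after thinning and 50.1% when at least 2 UMIs of each gene were asked for. Its difference between injury and control was 11.1 points, 5.63 to 16.7 without one library and 3.09 after thinning. The cause of these moves was not tested beyond the lower depth of thinned cells.

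Counts over all genes moved more. For endothelium over other types, 842 became 1813 with no filter and 2013 with no fold threshold. For injury in endothelium, 0 became 11 with no filter, 12 without control replicate 1 and 23 without control replicate 2. For whole libraries, 0 became 6 with DESeq2 and 25 without control replicate 2. For the classes, 200 became 105 with DESeq2, 45 after thinning, 131 without injury replicate 1 and 105 without injury replicate 2. For the thinned comparison, 27 became 5 with DESeq2, 280 without thinning, and 13 without control replicate 2 or injury replicate 2. For injury in other types, 3 became 1 with library totals, the stricter gate or all barcodes, 0 with no limit on other types' markers, 121 with no filter, 29 with DESeq2, 22 with the replicate block and 21 to 183 without one library.

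The call of *Tjp1* between the classes was also lost with DESeq2 (adjusted p = 0.0716), and *Abcg2* was called with no filter on low counts (log2 fold change -0.87, adjusted p = 0.00112). Library totals in place of TMM moved the median of all genes for endothelium over other types from 0.12 to 0.28 on the log2 scale. Libraries shared the numbers 1 and 2 between conditions, but the numbers do not establish pairs. Deviations of same-numbered libraries correlated at 0.246 over 5839 genes, and with the replicate block 0 barrier genes were called for injury in endothelium, in other types and in whole libraries. With 2 libraries a condition the exact permutation test of a share cannot go below p = 0.333, and *Ocln* and *Slco1c1* were limited by 13 and 51 endothelial UMIs.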
